A study of Mus musculus with 2 samples.

Results

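Amacrine cells are the inhibitory interneurons of the inner retina, and the cells described here are amacrine cells in which no transcript of the cholinergic starburst genes Chat, Slc18a3, Slc5a7 or Fezf1 was captured. A barcode was kept with at least 200 detected genes and up to 15% mitochondrial UMIs (unique molecular identifiers, which count captured transcripts). A kept barcode was taken as a member with at least 2 UMIs of Tfap2a and Tfap2b summed and at least 1 UMI of Gad1, Gad2, Slc32a1 or C1ql1. It also had no UMI of Chat, Slc18a3, Slc5a7, Fezf1, Lhx1 or Pou4f2 and up to 2 UMIs each of Col3a1 and of the keratins Krt5, Krt14 and Krt15 summed. The members were thus chosen by their own UMI counts of these genes. The rule took 1452 of 26158 kept barcodes in all. They were 585 of 14131 in the control library and 867 of 12027 in the mutant library.

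The study asked what the transcription factor Myrf does in eye development, and compared newborn (P0) eye cups by droplet single-cell RNA sequencing of 3′ transcript ends. Control eye cups were Myrf fl/fl. Mutant eye cups were Rx>cre Myrf fl/fl, so both groups carried the floxed Myrf alleles and only the mutant group also carried the Cre transgene. Each genotype was 1 library made from 3 pooled eye cups with cornea, lens and optic nerve removed. Rx>cre acts from the early eye field, so the retina and the retinal pigment epithelium (RPE) both derive from cells in which Cre could act, and an amacrine difference cannot be assigned to one or the other tissue. With 1 library per genotype no test between genotypes was possible, and every interval below is a 95% interval for counting error only.

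Amacrine cells are born from retinal progenitors through a step that depends on the basic helix-loop-helix factor Ptf1a, and they then express the AP-2 factors Tfap2a and Tfap2b. Most use GABA, made by the glutamate decarboxylases Gad1 and Gad2, or glycine, taken up by Slc6a9, and both transmitters are loaded into vesicles by the transporter Slc32a1. Factors such as Barhl2, Meis2, Lhx9, Nr4a2 and Ebf3 mark different amacrine subtypes, many of which are still immature in the newborn mouse.

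The promoters of 3 genes are shown because the descriptions below turn on them. Gad2 admitted most of the cells, Nhlh2 was the gene most above other retinal cells among genes that the rule did not use, and Chodl was among the genes highest in the cells with Ptf1a. The bases lie upstream of each gene on the + strand of GRCm38.p6, are from RefSeq and stop before the GENCODE M21 gene start. Capitals mark the AP-2 consensus GCCNNNGGC in Gad2, and the E-box CANNTG, the recognition sequence of basic helix-loop-helix factors, in Nhlh2 and Chodl.
Gad2, chr2:22622077-22622204: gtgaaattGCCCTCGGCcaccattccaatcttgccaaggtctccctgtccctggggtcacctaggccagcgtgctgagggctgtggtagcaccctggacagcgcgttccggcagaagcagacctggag
Nhlh2, chr3:102009895-102010075: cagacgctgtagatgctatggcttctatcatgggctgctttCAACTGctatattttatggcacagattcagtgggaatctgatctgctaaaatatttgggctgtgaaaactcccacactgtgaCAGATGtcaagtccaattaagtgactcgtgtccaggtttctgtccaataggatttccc
Chodl, chr16:78930698-78930947: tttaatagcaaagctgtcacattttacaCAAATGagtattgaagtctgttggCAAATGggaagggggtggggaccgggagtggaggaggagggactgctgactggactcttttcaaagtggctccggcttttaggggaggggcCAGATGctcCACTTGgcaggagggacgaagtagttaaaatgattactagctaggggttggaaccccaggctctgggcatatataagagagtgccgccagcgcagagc
Both motifs read the same on either strand, and no marked matches overlapped. Over the full 250 bases before the RefSeq start, 4509 of 32851 promoters (13.7%) held the AP-2 letters and 21753 (66.2%) held an E-box. Of the 20 genes most above other retinal cells, 17 were matched to a promoter, and 2 of those held the AP-2 letters and 14 an E-box. The percentages count promoters and the numbers 2 and 14 count genes, which can have several promoters. The percentages are therefore no background for the gene counts, and the 2 measures are not compared. The motif matches are descriptions of the sequence and not sites of binding.

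The libraries held 79017429 UMIs (control) and 76272867 UMIs (mutant). The members were deeper than the average barcode, with a median of 6004 UMIs and 2492 genes in control and 6384 UMIs and 2611 genes in mutant, against 4231 and 4990 UMIs over all kept barcodes. Myrf was low in these cells in both libraries. It gave 15 UMIs in 9 control members and 4 UMIs in 3 mutant members, out of 883 and 129 UMIs in all kept barcodes. A 3′ transcript count measures the level of Myrf RNA and does not show the deletion itself. Tmem98, which encodes the membrane protein that binds MYRF, was at 20.3 CPM (the summed UMIs of a gene scaled to 1e+06 UMIs of the members) in control members (16.2 to 25) and 21.7 CPM in mutant members (18.3 to 25.6).

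The libraries differed in the sex of their cells, which stands beside every comparison below. Of the control members, 409 (69.9%) held a UMI of the Y-linked genes Ddx3y, Eif2s3y, Kdm5d or Uty and none of Xist, the RNA of the inactive X chromosome, and 14 held Xist alone. Of the mutant members, 639 (73.7%) held Xist alone and 95 (11%) a Y-linked transcript alone. Sex and genotype therefore cannot be told apart from the pooled totals. The 17 control and 83 mutant members with both kinds of transcript were deeper, with medians of 10409 and 10826 UMIs, and 47.1% and 34.9% of them held at least 10 UMIs of the photoreceptor factors Otx2 and Crx. Barcodes with the highest scores of the doublet caller Scrublet, up to the share expected for each library, were called doublets. They included 83 control members (14.2%) and 142 mutant members (16.4%), which were kept in the main values. Scrublet's own threshold called 0 control members and 79 mutant members. Of 59 barcodes found in both libraries, 7 were members in 1 library and none was a member in both.

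The cells carried the amacrine genes that name them. Gad2 was found in 538 control members (92.0%) and 809 mutant members (93.3%), and it alone admitted 47.0% and 46.9% of the cells. Slc32a1 was found in 46.2% and 46.1%. Gad1 was sparse, in 7.35% and 6.69%, and C1ql1 alone admitted 7 and 11 cells. Tfap2b was found in 94.0% and 91.6% and Tfap2a in 80.9% and 78.5%. These genes chose the cells, so their presence is a description.

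At the AP-2 limit, cells just inside the rule held more Gad2 and Ptf1a than cells just outside it. Control cells with 2 UMIs of Tfap2a and Tfap2b (n = 69) held Gad2 at 513 CPM and Ptf1a at 591 CPM, and cells with 1 UMI (n = 120), which were left out, held them at 312 and 374 CPM. Mutant cells with 2 UMIs (n = 128) held Gad2 at 510 CPM and Ptf1a at 502 CPM, against 295 and 303 CPM in the 157 left out. A further 110 control and 111 mutant cells had enough AP-2 transcripts but no transmitter gene, and they held Ptf1a at 658 and 662 CPM, against 761 and 538 CPM in the 93 and 116 members with 1 transmitter UMI. Among members Ptf1a stood at 470 CPM in control and 414 CPM in mutant. The same control cells held Lhx9 at 19.2, Meis2 at 247 and Barhl2 at 79.9 CPM, and the mutant cells at 47.0, 302 and 63.5 CPM, against 218, 753 and 205 CPM in control members and 228, 1009 and 199 CPM in mutant members. The cells left out for lack of a transmitter gene were therefore higher in Ptf1a and lower in these 3 factors than the members of the same library.

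Genes that the rule did not use also set the members apart from the other barcodes with a retinal gene signature. Nhlh2, a neuronal helix-loop-helix factor, was at 515 CPM in control members and 9.75 CPM in other retinal barcodes, and at 434 and 9.10 CPM in mutant. The same pairs were 347 and 8.23 CPM, and 348 and 10.1 CPM, for the chemokine Cxcl14. Runx1t1, a transcriptional corepressor, was at 703 against 21.1 CPM and at 638 against 22.1 CPM. The zinc finger repressor Scrt2 and the glutamate transporter Slc1a6 followed, with 240 and 345 CPM in control members against 6.51 and 11.4 CPM elsewhere. Barhl2, a homeobox factor of amacrine subtype choice, was at 205 and 199 CPM in control and mutant members and at 6.42 and 7.19 CPM in the other retinal barcodes. The synaptic adhesion gene Nrxn3 was at 351 and 341 CPM against 13.6 and 14.0 CPM. Cacng3, Cacng2, C1ql2, Myt1l, Igfbpl1, Eomes and Rph3a were also among the 20 genes furthest above other retinal cells in both libraries. All of these are measured in the cells that the rule chose, and they are given with no test.

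To compare shares of cells with a transcript, 3000 UMIs were drawn at random from every cell, a depth that 575 control and 848 mutant members reached. The photoreceptor lineage (Crx-positive, AP-2-negative barcodes, median 3778 and 4044 UMIs) and progenitors (barcodes gated on progenitor genes such as Sfrp2 and Fgf15, median 5607 and 5873 UMIs) served as background. Ptf1a was found in 45.2% of control members and 44.1% of mutant members at this depth, against 1.86% and 2.63% of the photoreceptor lineage. Pax6, which amacrine cells and progenitors share, was found in 96.5% and 95.2% of members and in 72.1% and 73.7% of progenitors. Elavl3, a neuronal RNA-binding protein, was found in 73.2% and 67.5% of members and in 1.98% and 2.47% of progenitors. Most members thus held a transcript of the neuronal gene Elavl3, and a large share carried Ptf1a.

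**Figure D1:**
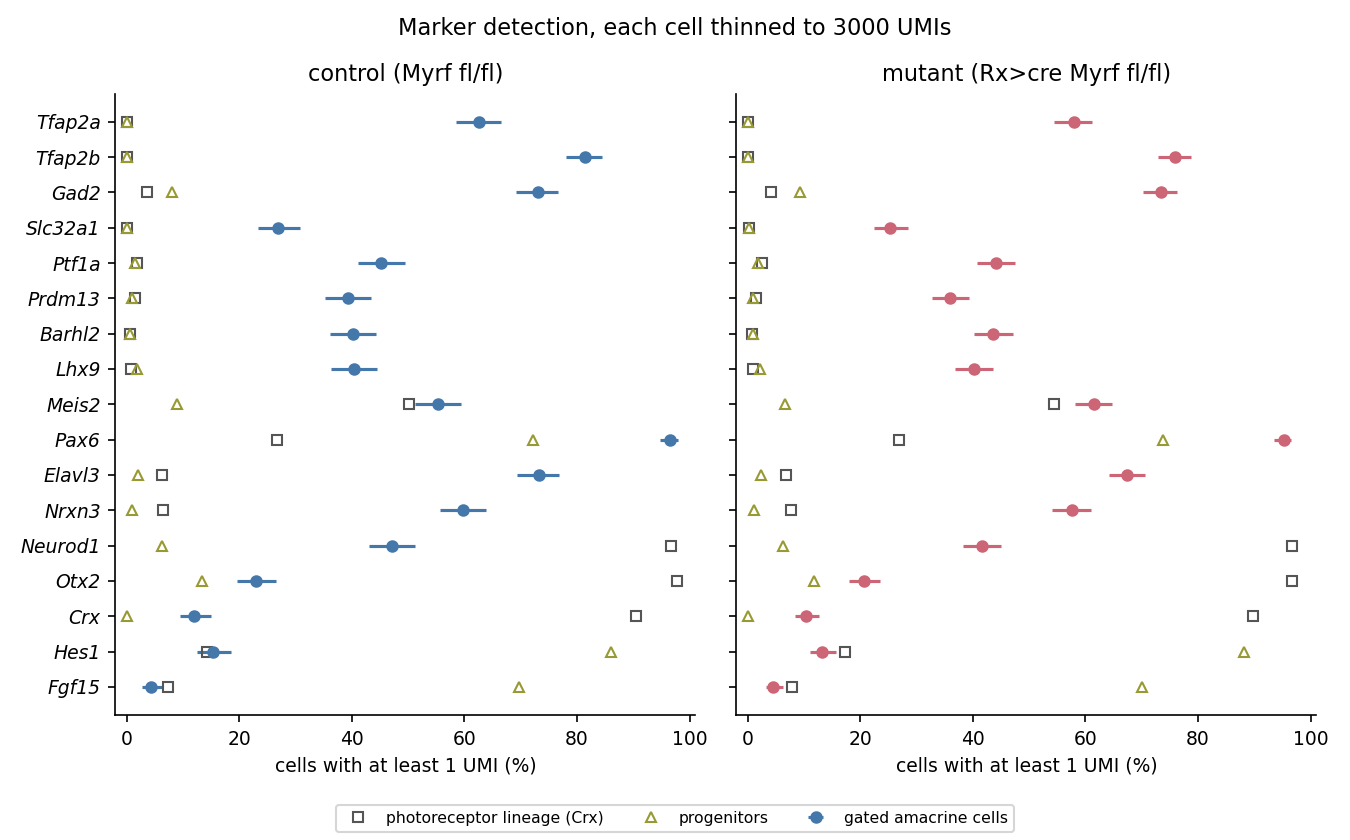
Percent of cells with at least 1 UMI of each gene after thinning to 3000 UMIs, in control (left) and mutant (right). Filled circles are gated amacrine cells with 95% exact binomial intervals, squares the photoreceptor lineage and triangles progenitors. Barhl2, Lhx9, Elavl3 and Nrxn3 sit far to the right only in the gated cells, while Neurod1 and Otx2 are highest in the photoreceptor lineage.

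Some members held transcripts of other lineages. At least 10 UMIs of Otx2 and Crx were found in 71 control members (12.1%) and 102 mutant members (11.8%). The summed level of the 16 photoreceptor markers was 1798 CPM in control and 1639 CPM in mutant members, and that of the 16 progenitor markers was 2119 and 2106 CPM. At least 2 UMIs of the division genes Mki67 and Top2a were found in 8.03% and 8.42% of members, against 59.8% and 63.1% of progenitors and 8.06% and 10.4% of the photoreceptor lineage. By these 2 genes the members were near the photoreceptor lineage, but at least 2 UMIs of S phase genes were found in 75.4% and 79.9% of members, against 48.7% and 56.0% of that lineage and 95.6% and 96.8% of progenitors. These shares are at full depth, at which the members were deeper than the photoreceptor lineage. With called doublets removed, 847 of 1369 Otx2 UMIs stayed in control members and 1005 of 1829 in mutant members. The part of other doublets and of free RNA in these values was not tested.

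Starburst, horizontal and ganglion cells could not be compared with the members. The gates fixed for them found 1 starburst cell in each library, 2 and 3 horizontal cells and 3 and 9 ganglion cells. Chat gave 3 UMIs in all control barcodes and 0 in all mutant barcodes, which allows up to 3 UMIs, and Slc18a3 gave 2 in each. Pou4f2, the ganglion factor, gave 32 and 28 UMIs, and Lhx1, the horizontal factor, 12 and 22. At these depths the rule's starburst, horizontal and ganglion exclusions removed few cells, and a starburst cell with none of its genes captured would stay among the members.

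The members were a larger share of the mutant library. They were 4.14% of kept control barcodes (3.82 to 4.48, exact Clopper-Pearson) and 7.21% of kept mutant barcodes (6.75 to 7.69), a ratio of 1.74. Among barcodes with a retinal gene signature they were 585 of 9100 (6.43%, 5.93 to 6.95) and 866 of 9994 (8.67%, 8.12 to 9.23), a ratio of 1.35. Among kept barcodes with at least 3000 UMIs, 9875 in control and 10274 in mutant, the ratio was 1.42, from 5.82% and 8.25%. With the rule read on those same barcodes thinned to 3000 UMIs it was 1.24, from 4.10% and 5.07%.

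Within cells of one sex class the difference was not of one size. Among barcodes with Y-linked transcripts alone the members were 5.73% in control (409 of 7134) and 5.85% in mutant (95 of 1625), a ratio of 1.02. Among barcodes with Xist alone they were 1.36% (14 of 1031) and 7.61% (639 of 8392), a ratio of 5.61. Of retinal barcodes with Xist alone they were 4.47% (14 of 313, 2.47 to 7.39) in control and 8.71% in mutant (8.08 to 9.38). Among barcodes with both kinds of transcript they were 4.99% (2.93 to 7.86) and 13.0% (10.5 to 15.9), and among those with neither 2.58% (2.18 to 3.03) and 3.64% (2.72 to 4.78). Of retinal barcodes with both they were 9.88% (5.86 to 15.4) and 16.6% (13.4 to 20.2). Of those with Y-linked transcripts alone they were 7.95% (7.23 to 8.73) in control and 7.46% (6.07 to 9.04) in mutant. Of those with neither they were 4.18% (3.53 to 4.89) and 5.52% (4.11 to 7.24). Over kept barcodes the mutant share was therefore higher with intervals apart among cells with Xist alone and with both, where the control library held 14 and 17 members. It was higher with overlapping intervals among cells with neither, and close to control among cells with Y-linked transcripts alone. Over retinal barcodes the intervals overlapped in every class but Xist alone, and the mutant share was lower than control with Y-linked transcripts alone. A stricter rule that also barred any UMI of Crx, Isl1, Onecut1, Col1a1, Col1a2, Mki67 or Top2a left 7 control and 293 mutant cells, while Col1a1 was found in 61.9% of control members and 15.6% of mutant members after thinning.

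**Figure D2:**
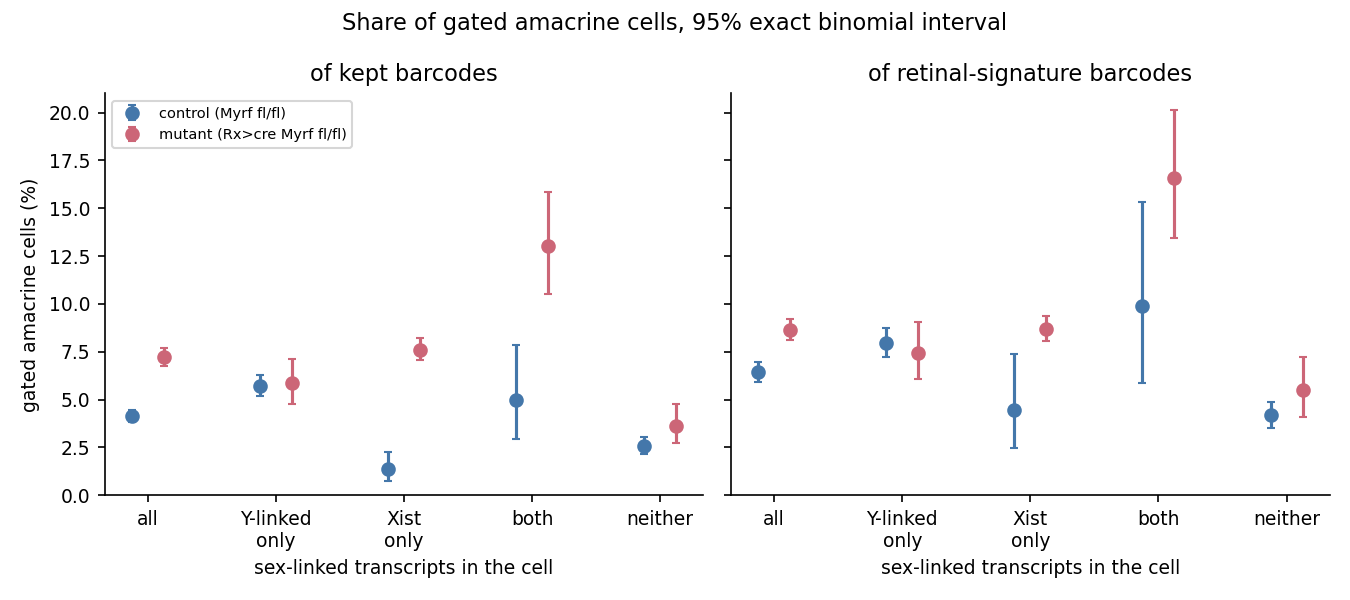
Gated amacrine cells as percent of kept barcodes (left) and of barcodes with a retinal gene signature (right), for all cells and by the sex-linked transcripts in the cell. Points are shares in control and mutant and bars 95% exact binomial intervals. The intervals with Y-linked transcripts alone overlap between genotypes, and those with Xist alone do not.

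Transcript levels in the members were close between genotypes for most genes. Of 6842 genes with at least 200 UMIs in members of both libraries together, 55 (0.804%) were at least 1.5-fold higher in mutant and 40 (0.585%) at least 1.5-fold lower, on CPM with 1 CPM added. The median log2 ratio over all 6842 was 0.02. Sex-linked and mitochondrial genes were not left out of these counts, which also hold the lens, collagen, blood and pigment genes described below.

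None of the 5 measured genes of GABA handling passed 1.5-fold, against 0.804% of all genes higher and 0.585% lower. The rule admitted cells by Gad2 and Slc32a1, so their levels and the list's median, a log2 ratio of 0.06 that is Gad2's own, are partly set by it and are a description. Gad2 was at 513 CPM (492 to 535) in control and 536 CPM (519 to 555) in mutant. Slc32a1 was at 95.9 CPM (86.8 to 106) and 91.9 CPM (84.7 to 99.6). The GABA-degrading enzyme Abat was at 64.3 and 67.8 CPM, and the GABA transporter gene Slc6a11 at 32.5 and 34.9 CPM. The intervals of each of these genes overlapped between genotypes.

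Among 17 measured factors of amacrine specification, 0 were past 1.5-fold higher and 1 lower in mutant, against 0.804% and 0.585% of all genes, with a median log2 ratio of -0.04. Ptf1a was at 470 CPM (449 to 491) in control and 414 CPM (398 to 430) in mutant, a log2 ratio of -0.18. Prdm13, which acts after Ptf1a in amacrine specification, was at 293 CPM (277 to 310) and 241 CPM (229 to 254), a log2 ratio of -0.28. Pax6 was at 1341 and 1344 CPM and the nuclear receptor Rorb at 2366 and 2434 CPM. The gene past the fold was Neurod2, a helix-loop-helix factor, at 29.0 CPM (24.1 to 34.6) and 15.5 CPM (12.6 to 18.9), a log2 ratio of -0.86.

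Neurod1 and Neurod4, which photoreceptor precursors also express, were lower in the pooled members without passing the fold. Neurod1 was at 509 and 437 CPM, and it was found in 96.7% and 96.6% of the photoreceptor lineage after thinning. Neurod4 was at 200 CPM (187 to 214) and 143 CPM (134 to 153), a log2 ratio of -0.48. With called doublets removed the log2 ratio of Neurod4 was -0.67, past the fold. The sex classes went opposite ways, with log2 ratios among Xist cells of 1.68 for Neurod1 and 0.84 for Neurod4, from 10 and 6 control UMIs, and among Y-linked cells of -1.47 and -1.57. The median of the photoreceptor markers moved with them, at 1.39 among Xist cells and -1.91 among Y-linked cells. Bhlhe22, a factor of amacrine subtypes, was at 44.0 CPM (38.0 to 50.8) and 61.3 CPM (55.4 to 67.7). Of the 12 measured photoreceptor markers 0 were past the fold higher and 1 lower in mutant members, against 0.804% and 0.585% of all genes. The part of photoreceptor transcripts in these values was not tested. In the pooled members with called doublets kept, specification genes thus differed in both directions by less than 1.5-fold, Neurod2 excepted. With them removed Neurod4 was a further exception.

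Factors of amacrine subtypes lay on both sides of the fold. Of 22 measured, 3 were past 1.5-fold higher and 3 lower in mutant, against 0.804% and 0.585% of all genes, with a median log2 ratio of -0.09. Those higher were Zfhx3, Zfhx4 and Tshz1, and those lower were Pou3f3, Lmo4 and Nfia. Meis2, Lhx9, Nr4a2, Ebf1, Eomes and Tbx3 stayed within 1.5-fold in the pooled members, with Meis2 at 753 CPM (727 to 780) and 1009 CPM (985 to 1034) and Lhx9 at 218 CPM (204 to 233) and 228 CPM (216 to 240). Meis2 was past the fold among Xist cells and among Y-linked cells, with log2 ratios of 0.63 and 0.72. It was at 769 and 1895 CPM among cells with neither, and at 485 and 694 CPM among cells with both.

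Zfhx3, a zinc finger and homeobox transcription factor, lies at chr8:107942644-108961630 in GRCm38. It was at 161 CPM (149 to 173) in control members and 359 CPM (345 to 374) in mutant members, a log2 ratio of 1.16 (1.04 to 1.29). In the other retinal barcodes it was at 36 and 34.6 CPM. At that depth 21.9% of control members held it (18.6 to 25.5) and 39.5% of mutant members did (36.2 to 42.9), against 9.45% and 6.42% of the photoreceptor lineage. At least 3 UMIs at full depth were found in 80 control members (13.7%) and 249 mutant members (28.7%). At least 10 UMIs were found in 17 control members (2.91%) and 88 mutant members (10.2%). In mutant more cells thus held Zfhx3 and more held many UMIs of it, and the higher level was not seen in the other retinal barcodes. Zfhx3 is also on the list of 13 starburst markers, which summed to 642 CPM in control and 876 CPM in mutant members. It was the 1 gene of the 5 measured on that list to pass the fold, against 0.804% of all genes higher. Another gene of the list, Sox2, was found in 97 control and 144 mutant members. After thinning Sox2 was in 8.17% and 9.55% of members, against 15.8% and 15.4% of the photoreceptor lineage. The part of starburst cells with none of the 4 barred genes captured was not tested.

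Zfhx3 was higher in mutant in each sex class, by different amounts. Among Y-linked cells it was at 148 CPM (135 to 162) in control and 607 CPM (550 to 668) in mutant. Among Xist cells it was at 239 CPM (139 to 382) in the 14 control members and 311 CPM (295 to 328) in mutant, and these intervals overlap. Among cells with both kinds of transcript it was at 170 CPM (118 to 237) and 266 CPM (234 to 301), and these intervals also overlap. Among cells with neither it was at 198 and 850 CPM. Within the mutant library the Xist cells were therefore lower in Zfhx3 than the Y-linked cells.

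The mutant Y-linked members differed from the mutant Xist members in other genes as well. Meis2 was at 1267 against 982 CPM, Neurod1 at 192 against 452 CPM and Otx2 at 109 against 261 CPM. Lmo4, a LIM-domain cofactor, was at 243 CPM (207 to 283) in mutant Y-linked members and 451 CPM (432 to 471) in mutant Xist members. In control it was at 623 CPM (596 to 651) and 281 CPM (172 to 434). The order of the sex classes in Lmo4 was therefore opposite in the control and mutant libraries, with 14 cells in the control Xist class. Whether these gaps follow sex or the few animals in each pool cannot be told apart.

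**Figure D3:**
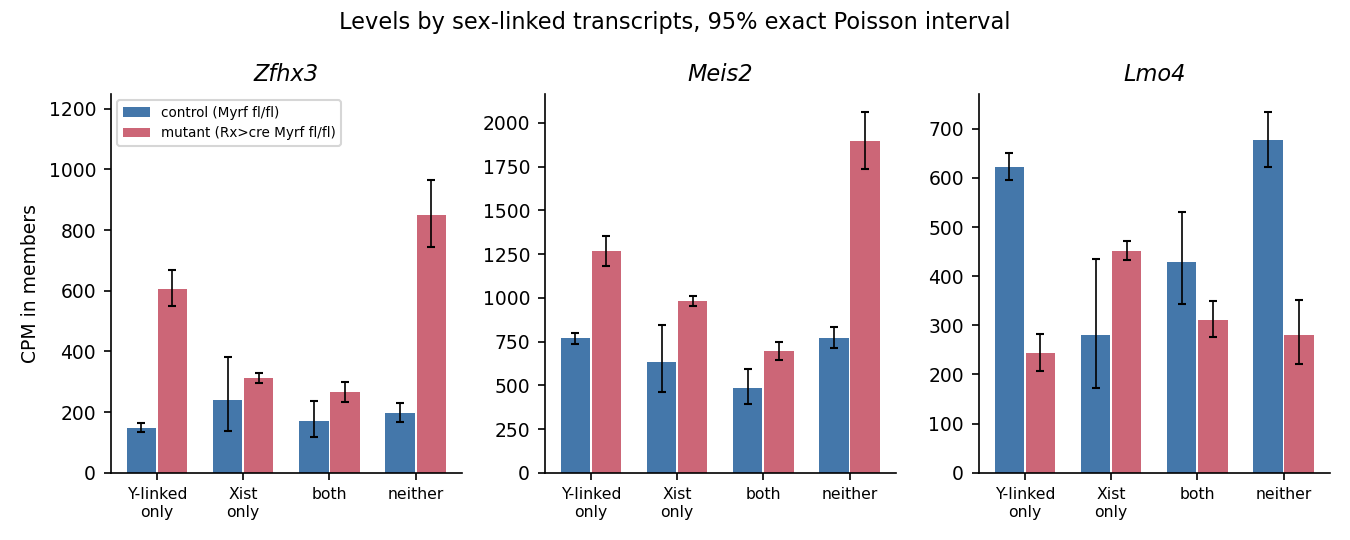
CPM of Zfhx3, Meis2 and Lmo4 in gated amacrine cells by sex-linked transcripts, control and mutant side by side, with 95% exact Poisson intervals. Zfhx3 and Meis2 are higher in mutant in each of the 4 classes, and Lmo4 is lower in mutant except among cells with Xist alone.

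Cells with Zfhx3 shared a set of genes in both libraries. This split was chosen after the levels of Zfhx3 were seen, and it was made at full depth and not repeated on thinned cells. Members with at least 3 UMIs of Zfhx3 were set against members with none, 80 against 378 in control and 249 against 414 in mutant. Cbln2, a synaptic organizer, was at 81.1 against 5.24 CPM in control and at 65.3 CPM against no UMI in mutant. Hbegf, an EGF-family ligand, was at 41.3 against 4.84 CPM and at 43.9 against 3.82 CPM. Zfhx4, Tshz1, Pde4b and the potassium channel Kcna6 were also among the 6 highest, with Zfhx4 at 56.9 against 11.3 CPM and at 115 against 13.2 CPM.

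The same cells were higher in Meis2 and lower in Ptf1a. Meis2 was at 1327 against 626 CPM in control and at 1840 against 527 CPM in mutant. Ptf1a was at 334 against 514 CPM and at 211 against 524 CPM. Lmo4 was at 314 against 736 CPM and at 207 against 533 CPM, and Pou3f3 at 19.9 against 68.1 CPM and at 3.90 against 40.6 CPM. Zfhx4 and Tshz1, which like Zfhx3 were higher in mutant members, were thus higher in the cells with Zfhx3, and Lmo4 and Pou3f3, which were lower in mutant, were low in those cells. Gad1 was at 25.6 against 9.27 CPM and at 32.2 against 4.51 CPM.

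The genotype difference in Zfhx3 was larger in the cells with Meis2. There it was at 192 CPM (177 to 208) in control and 453 CPM (434 to 473) in mutant. In cells without Meis2 it was at 81.6 CPM (66.3 to 99.5) and 92.2 CPM (78.3 to 108). Cells without Ptf1a held 197 and 541 CPM, and cells with Ptf1a 131 and 213 CPM. These values too are at full depth and were not repeated on thinned cells.

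Zfhx4 was at 20.7 CPM (16.6 to 25.5) in control and 47.0 CPM (41.9 to 52.6) in mutant members, and at 10.5 and 8.13 CPM in the other retinal barcodes. Among Xist cells its direction was reversed, with a log2 ratio of -0.42 and 14 control cells behind it. Tshz1 was at 38.9 CPM (33.2 to 45.3) and 62.1 CPM (56.2 to 68.5). Pou3f3 was at 55.1 CPM (48.3 to 62.6) in control and 21.6 CPM (18.1 to 25.5) in mutant members, a log2 ratio of -1.31. Pou3f3 was also lower in the other retinal barcodes of the mutant, at 4.73 and 0.637 CPM. Those barcodes can include cells that the rule narrowly left out, so whether the difference reached beyond amacrine cells was not tested. Lmo4 was at 619 CPM (595 to 643) and 401 CPM (386 to 417), a log2 ratio of -0.62, while the other retinal barcodes stood at 125 and 127 CPM. Its log2 ratio was under the fold with the rule read on thinned cells (-0.50) and with no Col3a1 limit (-0.56). Nfia, a nuclear factor I family member, was at 83.1 and 53.9 CPM, and at 132 and 127 CPM in the other retinal barcodes.

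**Figure D4:**
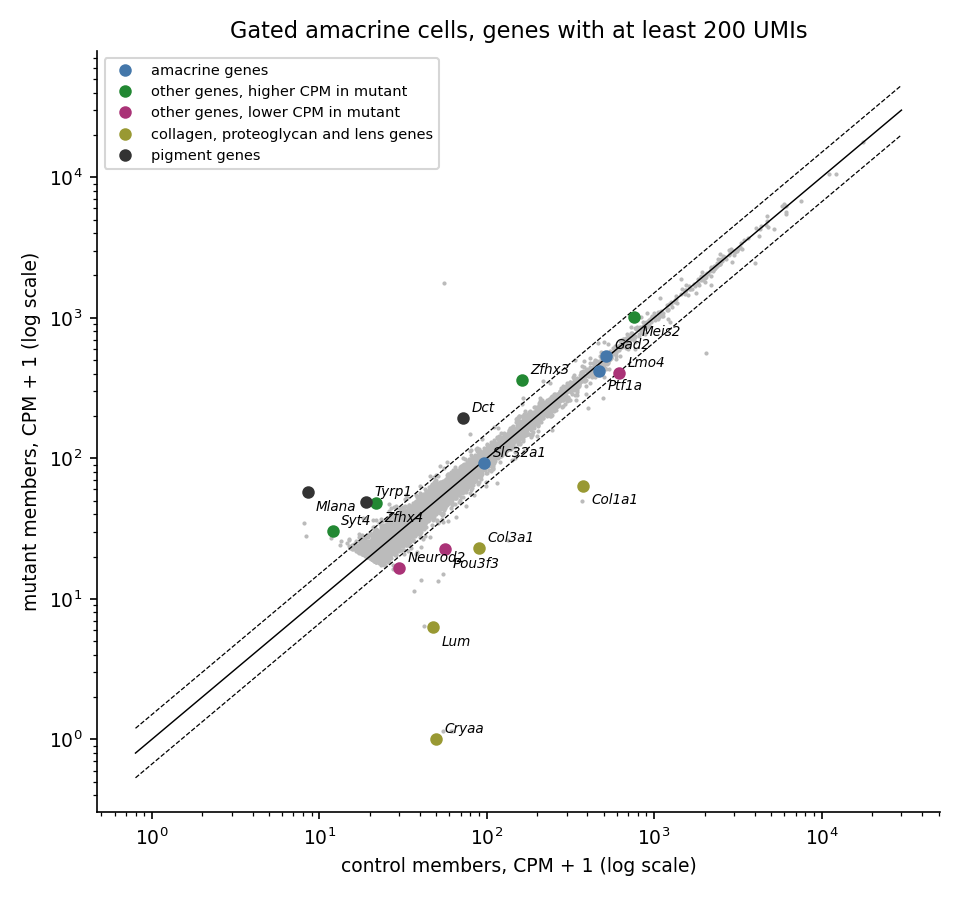
Summed CPM of each measured gene in mutant members against control members, both axes logarithmic with 1 CPM added. The solid line marks equal levels and dashed lines 1.5-fold. Zfhx3, Zfhx4 and Syt4 lie above the band and Lmo4, Neurod2 and Pou3f3 below it, while Gad2, Slc32a1 and Ptf1a lie near the line and the collagen and lens genes are furthest below. The unlabelled point far above the line is Xist.

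Synaptic and neuronal genes were near equal. Of 19 synaptic vesicle genes 1 passed the fold upward and 0 downward, against 0.804% and 0.585% of all genes, with a median log2 ratio of 0.03. The gene past it was Syt4, a synaptotagmin, at 11.1 CPM (8.13 to 14.7) and 29.5 CPM (25.5 to 34), with other retinal barcodes at 12.6 and 10.4 CPM. The log2 ratio of Syt4 was 0.10 under the stricter purity rule, under the fold, and 0.91 among Xist cells, each from 1 control UMI. Among Y-linked cells it was 2.19. Snap25, a component of the vesicle fusion machinery, was at 193 and 202 CPM, and Rab3a at 152 and 156 CPM. None of 26 cytoskeletal and RNA-binding genes passed the fold. Tubb3, the neuronal tubulin, was at 1771 and 1489 CPM and Stmn2 at 638 and 696 CPM.

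Receptor genes were low at this age. Of 19 listed GABA and glycine receptor subunits 6 reached 200 UMIs, and of 18 glutamate receptor subunits 4 did. Of these 0 passed the fold, against 0.804% of all genes higher and 0.585% lower. Gabra2 was at 65.2 and 72.2 CPM, the glycine receptor subunit Glra2 at 31.1 and 25.9 CPM and the AMPA receptor subunit Gria2 at 61.2 and 68.6 CPM. Among the calcium-binding proteins Calb2 (calretinin) was at 115 CPM (105 to 126) and 121 CPM (113 to 130).

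Of 25 measured neurite and lamination molecules, 1 was past 1.5-fold higher and 1 lower, against 0.804% and 0.585% of all genes (median log2 ratio 0.05). The adhesion gene Cdh4 was at 28.5 and 43.6 CPM, and at 30.2 and 41.7 CPM in the other retinal barcodes. Robo3, a receptor of the Roundabout family, was at 37.2 CPM (31.6 to 43.5) and 20.5 CPM (17.1 to 24.3). Robo2 and the extracellular guidance protein Reln were higher without passing the fold, with Robo2 at 80.1 and 114 CPM and Reln at 41.9 and 59.8 CPM.

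The genes of specialised amacrine types were rare, and 0 of 24 neuropeptide and modulator genes reached 200 UMIs. Vip and Nos1 gave 0 UMIs in both libraries, which allows up to 3 UMIs in each. Th, the enzyme of dopaminergic amacrine cells, gave 0 and 2 UMIs, and Sst gave 2 in each. Npy gave 20 and 95 UMIs, but it was found in 0.870% and 3.07% of thinned members against 12.8% and 15.6% of progenitors. Gal was found in 0.348% and 2.59% of members, against 0.204% and 0.890% of progenitors. Cck gave 1 and 106 UMIs, and 5 mutant cells or fewer held all of the latter. These genes were too sparse to compare.

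The transporter of glycinergic cells, Slc6a9, was at 24.3 CPM (19.8 to 29.4) in control and 17.5 CPM (14.5 to 21.1) in mutant members. It was found in 6.43% and 4.83% of thinned members and in 10.9% and 9.14% of the photoreceptor lineage, so its detection was not above that background. The neuronal glycine transporter Slc6a5 gave 14 and 29 UMIs. Neurod6, a factor of an amacrine subtype, gave 1 UMI in control and 0 in mutant. Mature glycinergic subsets could not be read at this depth.

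The shares of members with each of 6 subtype factors and transporters were set side by side. At full depth Meis2 was found in 66.8% of control and 70.2% of mutant members, Lhx9 in 55.0% and 56.6%, and Ptf1a in 51.6% and 53.2%. Nr4a2 was found in 16.8% and 18.1%, Slc6a9 in 12.0% and 10.5% and Ebf3 in 10.3% and 7.15%. After thinning the shares were 55.3% (51.1 to 59.4) and 61.4% (58.1 to 64.7) for Meis2, 40.3% and 40.2% for Lhx9, 45.2% and 44.1% for Ptf1a, and 9.04% (6.83 to 11.7) and 13.0% (10.8 to 15.4) for Nr4a2. The order of the markers was kept between genotypes, and the intervals of each marker overlapped between them. Meis2 was also found in 50.2% and 54.4% of the thinned photoreceptor lineage, so a single Meis2 transcript does not mark an amacrine subset by itself.

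**Figure D5:**
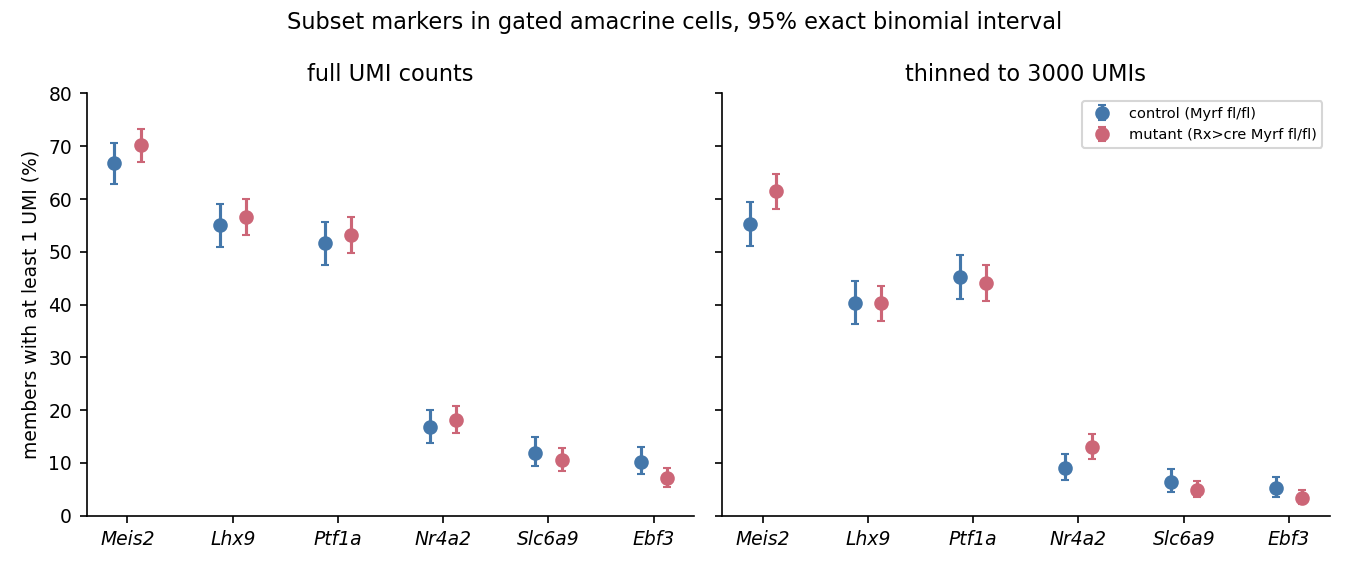
Percent of gated amacrine cells with at least 1 UMI of each subset marker, at full depth (left) and thinned to 3000 UMIs (right), in control and mutant, with 95% exact binomial intervals. Meis2, Lhx9 and Ptf1a were found in the most cells and Nr4a2, Slc6a9 and Ebf3 in fewer, and every pair of intervals overlaps. Meis2 and Slc6a9 were also found in the photoreceptor lineage.

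Ptf1a was less often in the same cell as Meis2, Lhx9 or Nr4a2 than independent genes would be. Of 575 thinned control members, 99 held both Meis2 and Ptf1a, against 144 if the genes were independent, and of 848 mutant members 144 held both, against 230. Lhx9 and Ptf1a were found together in 56 control cells against 105, and in 111 mutant cells against 150. Nr4a2 and Ptf1a were together in 9 control cells against 23.5 and in 14 mutant cells against 48.5. Ebf3 went the other way, with Ptf1a in 24 control cells against 13.6 and in 16 mutant cells against 12.8, and so did Slc6a9, in 28 against 16.7 and in 33 against 18.1. Lhx9 and Meis2 overlapped more than independence gives, in 158 against 128 control cells and in 250 against 210 mutant cells. Meis2 and Nr4a2 were together in 46 against 28.8 and in 102 against 67.6 cells. These counts are over cells of 1 library each, rest on single transcripts and are a description. Meis2 and Slc6a9 were also found in the photoreceptor lineage at the shares given above, so their counts are not read as subsets.

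The members with Ptf1a carried a distinct set of genes. The purinergic receptor P2rx1 was at 65.7 CPM with Ptf1a and 0.530 CPM without it in control, and at 65.8 CPM and no UMI in mutant. Krt73, a keratin gene, was at 230 against 6.89 CPM and at 209 against 2.79 CPM. Chodl was at 112 against 2.65 CPM and at 82.0 against 2.09 CPM, and the proneural factor Neurog1 at 50.01 against 0.530 CPM and at 37.0 against 0.697 CPM. The cells without Ptf1a were higher in Crabp1, a retinoic acid-binding protein, at 1110 against 177 CPM in control and 1000 against 158 CPM in mutant. They were also higher in C1ql2 (99.7 against 9.75 CPM, and 72.5 against 4.20 CPM) and in Glra2 (61.0 against 7.20 CPM, and 49.1 against 7.28 CPM). After thinning, P2rx1, Krt73, Chodl and Neurog1 remained higher with Ptf1a, and Crabp1, C1ql2 and Glra2 higher without it, in both libraries.

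Members with Meis2 were higher in C1ql2, at 69.0 against 0.833 CPM in control and 46.6 against 0.595 CPM in mutant. They were also higher in Nr4a2 (66.3 against 1.67 CPM, and 74.2 against 6.54 CPM) and in Rd3l and the synaptotagmin Syt7. Neurog1, Krt73 and Nupr1 were lower with Meis2. Neurog1 was at 15.4 against 60.0 CPM in control and at 7.77 against 57.7 CPM in mutant. Krt73 and Neurog1 were therefore high in the cells with Ptf1a and low in those with Meis2.

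Members with Lhx9 were higher in Pou3f3, at 80.7 against 19.6 CPM in control and 30.7 against 8.63 CPM in mutant. Glra2 was at 46.3 against 10.1 CPM and at 36.3 against 11.3 CPM, and the AP-2 family gene Tfap2e at 83.6 against 20.2 CPM and at 79.7 against 31.5 CPM. Cbln2, which marked the cells with Zfhx3, was low with Lhx9, at 2.03 against 42.1 CPM and at 4.50 against 48.1 CPM. Of the Cbln2 UMIs, 5 in control and 17 in mutant lay in members with Lhx9, and 75 and 128 in members without it. The cells with at least 3 UMIs of Zfhx3 were themselves not far from those with none in Lhx9, at 181 against 238 CPM in control and at 214 against 228 CPM in mutant. Pou3f3 was lower in mutant on either side of the Lhx9 split.

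Members with Nr4a2 were higher in Meis2, at 1759 against 513 CPM and at 2187 against 736 CPM, and in Tfap2e and Zfp503. Members with Ebf3 were higher in the homeobox genes Lhx5 (34.2 against 9.68 CPM, and 24.9 against 7.05 CPM) and Dlx1 (49.4 against 16.1 CPM, and 45.7 against 18.6 CPM). The differences with Nr4a2 kept their direction after thinning in both libraries. With Ebf3 the thinned cells held 3 to 5 UMIs of Lhx5 and Dlx1 in each library, and of the other genes highest with Ebf3, Itm2a turned lower in control, Pdlim4 turned lower in mutant and Ppef2 gave 0 UMIs with Ebf3 in both, so the Ebf3 differences rest on few UMIs. The genes highest with Slc6a9 were Mt3, Col8a1, Clu, Rdh5, Tyr and Krt18, which include genes of pigment cells. After thinning, Mt3, Rdh5, Tyr and Krt18 gave 0 or 1 UMI each in the cells with Slc6a9 of either library, so these differences did not hold.

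The largest differences between genotypes lay in genes of other tissues. The lens crystallin genes Cryaa, Cryba1, Crybb3 and Cryge gave 207, 228, 263 and 257 UMIs in control members and 0, 1, 1 and 1 in mutant members. Cryaa was at 85.7 CPM in the other retinal barcodes of the control and 0.0199 CPM in those of the mutant. Of 6 measured mesenchymal and mural genes 5 were past 1.5-fold lower in mutant, against 0.585% of all genes, with a median log2 ratio of -2.26. The 12 listed summed to 985 CPM in control and 192 CPM in mutant. Col3a1, which the rule held to 2 UMIs a cell, is among the 5, and the median is the midpoint of its log2 ratio of -1.97 and that of Col1a1, so both numbers are a description. Col1a1, a fibrillar collagen of mesenchyme, was at 374 CPM (356 to 393) and 63.0 CPM (57.1 to 69.5) in members, and at 559 and 73.2 CPM in the other retinal barcodes. Those barcodes met the same limit on Col3a1 as the members. Over all other kept barcodes, which were not held to it, the log2 ratio of Col1a1 was -0.41. Surface epithelium and lens markers summed to 212 and 51.9 CPM in members over the 15 listed. The limit on Col3a1 left out 116 of 701 otherwise passing control cells (16.5%) and 61 of 928 mutant cells (6.57%), and without it the log2 ratio of Col1a1 was 0.20 and the median of the mesenchymal and mural genes 0.040. The pooled level of these genes thus depended on the cells that the limit left out, while at least 1 UMI of Col1a1 was found in 511 of 585 control members (87.4%) and 275 of 867 mutant members (31.7%).

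Pigment and blood genes were carried by few cells. Mlana, a melanosome gene, was at 7.54 CPM in control and 56.5 CPM in mutant members, and 5 cells held 91.5% of its mutant UMIs. Dct, an enzyme of melanin synthesis, was at 71.4 and 191 CPM, and 5 cells held 88.4% of its mutant UMIs. In the other retinal barcodes Dct was at 539 and 284 CPM, the opposite direction. Of 13 pigment epithelium markers 5 were measured and 3 were past 1.5-fold higher, against 0.804% of all genes. In each library 8 cells held 885 of 1066 and 2953 of 3180 of the UMIs of Dct, Tyrp1, Mlana and Pmel. Without the members rich in photoreceptor, pigment or macrophage transcripts the log2 ratios of Mlana and Dct were -0.64 and -0.18. They were 3.50 and 2.86 with called doublets removed, and 5.99 and 4.47 among Y-linked cells. With the rule read on thinned cells they were 0.76 and 0.38, and with C1ql1 not admitting cells 1.10 and 0.38. Selenop, Ednrb and Gstp1 were also among the 10 highest, with Selenop at 7.07 and 33.8 CPM. Of 4 measured red blood cell genes 3 were past 1.5-fold lower, against 0.585% of all genes, and the 7 listed summed to 2736 and 989 CPM. Hbb-bs was at 2035 and 559 CPM, and 5 cells held 96.6% of its control UMIs. Macrophage markers summed to 31 UMIs in control and 237 in mutant members over 5 genes, and 3 mutant cells held 219 of these.

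Of 19 measured glycolysis and hypoxia genes 15 had a log2 ratio above 0, as did 3801 of all 6842 genes. Of the 19, 1 was past 1.5-fold higher and 1 lower, against 0.804% and 0.585% of all genes. The median was 0.13, against 0.02 over all genes in members and 0.39 for the list in the other retinal barcodes. The gene past the fold upward was Pfkp, a phosphofructokinase, at 20.02 CPM (16.0 to 24.8) and 35.2 CPM (30.8 to 40.1). Pgk1 was at 337 and 497 CPM and Eno1 at 460 and 657 CPM, with other retinal barcodes at 305 and 522 CPM and at 663 and 871 CPM. The gene past the fold downward was Ankrd37, a hypoxia target, at 54.2 and 34.5 CPM. Pgk1 and Eno1 had log2 ratios of 0.66 and 0.47 among Y-linked cells and of 0.14 and -0.01 among Xist cells. All 10 measured S phase genes had a log2 ratio above 0, beside the same 3801 of 6842 genes (median 0.19, against 0.23 in other retinal barcodes), and none of the 11 p53 target and apoptosis genes passed the fold.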

How the data were processed

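Per the labels, papain-dissociated P0 eye cups were profiled with the 10x Genomics 3′ kit on a NovaSeq. The submitters' processing notes name mm10, Cell Ranger 7.1.0 and Seurat 4.1.1. The deposited matrices hold counts of UMIs per gene and barcode, which the authors had not normalised, and their file header names version 3.1.0. UMIs were summed over members per library, scaled to CPM with 1 CPM added for log2 ratios, and compared as values with no test. Poisson, conditional Poisson and Clopper-Pearson intervals are at 95% and cover counting error only. Named genes were the 10 highest and lowest ratios, the 20 furthest above other retinal barcodes, 6 on each side of each subset split, and genes of literature lists with at least 50 UMIs, or fewer where a low level was the point. Xist, Tsix, Y-linked and mitochondrial genes were left out of that ranking. Retinal barcodes had at least 3 UMIs over 13 retinal genes and met the Col3a1 and keratin limits. The script was tested on simulated counts. Doublets were scored with Scrublet (scanpy 1.11.5) at 0.8% per 1000 barcodes. Of 31053 features, 30934 matched GENCODE M21. Python 3.11.15, numpy 2.4.6, pandas 2.3.3 and scipy 1.17.1 were used. Members and gene lists were chosen with earlier results of these data known. Alternatives were other gates, depths, denominators, sex classes, scalings and gene filters. The upper limit of 2000 UMIs that the study states was used only as an alternative. Some genes of the lists and gates are not reported here.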

Additional observations from a re-analysis of the deposited data

How the results depend on the processing

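No paired analysis was possible because each genotype was 1 library, and for the same reason no replicate could be left out. The ratio of member shares, mutant over control (main value 1.74), was 1.24 with the gate read on thinned cells, 2.5 (0.56 to 11.1) in barcodes up to 2000 UMIs with 4 control and 3 mutant members, 1.42 in barcodes with at least 3000 UMIs, 49.2 under the stricter purity rule, 5.61 in Xist cells, 1.02 in Y-linked cells, 1.35 over retinal barcodes, 1.56 with no Col3a1 limit and 0.995 over the amacrine, starburst, horizontal and ganglion cells together. In that last denominator 99.0% of control and 98.5% of mutant cells were members.

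The 55 genes higher and 40 lower of 6842 became 276 and 136 of 1580 under stricter purity, 957 and 322 of 3900 in Xist cells, 147 and 90 of 8952 with at least 100 UMIs, 15 and 15 of 3647 with at least 500 UMIs, and 1003 and 550 of 17774 with at least 1 UMI. The number higher was 36 with 5 CPM added and 34 of 5884 without members rich in Otx2, Crx, pigment or macrophage transcripts, and the number lower was 223 of 3278 in Y-linked cells. Stricter purity, with 7 control cells, gave list medians of 0.33 (specification), 0.65 (subtype), -0.42 (GABA), 0.28 (synaptic vesicle), 0.88 (neurite), 0.93 (glycolysis) and -1.09 (mesenchyme). Xist cells gave 0.17 (GABA), 0.35 (synaptic vesicle) and 0.67 (neurite), and Y-linked cells -0.66 (subtype). The thinned gate gave 0.079 (specification) and -1.65 (mesenchyme), and mesenchyme was -2.07 with 5 CPM added and 0.040 with no Col3a1 limit.

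Genes past 1.5-fold changed sign as follows. Lmo4 was 0.041 under stricter purity and 0.68 in Xist cells, Dct -0.56 and Mlana -1.53 under stricter purity, and Dct -0.18 and Mlana -0.64 without the members rich in other transcripts. Zfhx4 was -0.42 and Hbb-bs 2.43 in Xist cells, and Col1a1 0.20 with no Col3a1 limit. Of the other genes recomputed, stricter purity turned Klhl35 to 0.40, Ptf1a to 0.20, Prdm13 to 0.59, Gad2 to -0.52, Otx2 to 0.93 and Neurod1 to 0.19, and left Neurod4 with 0 control UMIs. Xist cells gave 0.90 for Klhl35, 1.68 for Neurod1, 0.84 for Neurod4 and -0.0053 for Eno1, Y-linked cells -0.20 for Gad2, and Slc32a1 was 0.027 and 0.017 without the members rich in other transcripts and without cells with both kinds of sex-linked transcript. Subset share ratios were 1.14 for Meis2 and 0.641 for Slc6a9 with at least 2 UMIs, and 1.43 for Nr4a2 after thinning (main values 1.05, 0.877 and 1.08). Doubling the UMIs required left 0 starburst, 2 horizontal and 3 ganglion cells. Barcodes up to 2000 UMIs held too few members for gene ratios. The alternatives without Otx2, Crx, pigment and macrophage-rich members, without cells with both kinds of sex-linked transcript, with no Col3a1 limit and the Zfhx3 split were added after the data were seen. The other 128 values of the shares, counts and medians stayed within their counting interval or, for counts, within 1.5 times. Some list medians near 0 changed sign inside it, subtype to 0.0054 with the thinned gate and 0.074 in Xist cells, and specification to 0.0056 without the members rich in other transcripts, 0.0036 with no Col3a1 limit and 0.0049 with each cell's own CPM averaged. The causes of the values that moved were not tested.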
